A study of Rattus norvegicus with 20 samples.

Results

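Immediate early genes are genes whose transcripts rise quickly when a cell is stimulated, without new protein synthesis. The set described here holds 10 named members, Fos, Fosb, Junb, Atf3, Egr1, Egr2, Myc, Cyr61, Ier3 and Dusp1, picked by gene name with earlier results of these data known. Of the 10 members, 9 had a probe under that name on the array, and all 9 were among the 13597 genes tested. Fosb was not analysed here. The samples were oesophageal tissue of Wistar rats on one-colour Agilent rat arrays, 4 arrays in each of 5 groups. Reflux oesophagitis had been induced by surgery in 4 groups. These were rats given STW5 at 0.5 ml/kg (low-dose STW5), rats given STW5 at 2 ml/kg (high-dose STW5), rats given omeprazole at 30 mg/kg, and untreated rats. The remaining group was sham operated and served as the baseline for the untreated rats. STW5 is a liquid herbal combination used for functional gut disorders, and omeprazole is a proton pump inhibitor. Both were started 7 days before surgery and continued for 10 days after it, when the oesophagus was removed.

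The members act at the end of the signalling chains that growth factors, cytokines and cell injury set off through MAP kinases. Fos, Fosb, Junb and Atf3 encode leucine zipper proteins that act in pairs as AP-1 type transcription factors, and Egr1 and Egr2 encode zinc finger factors that bind GC-rich DNA. Myc encodes a factor of cell growth, Cyr61 (now Ccn1) a secreted matrix protein of the CCN family, Ier3 a regulator of cell survival and Dusp1 a phosphatase that switches MAP kinases off. The tissue holds squamous epithelium, connective tissue and, in the rat, striated muscle. In bulk tissue such as this, a change in the number of cells that express a gene and a change in RNA per cell cannot be told apart.

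Known control elements of these genes were looked for in the sequence before their start. They were the CArG box, bound by serum response factor, and the cAMP response element TGACGTCA, bound by CREB and ATF proteins, together with its 5-letter core TGACG. RefSeq promoter entries (build GRCr8) were matched for 5 of the 9 measured members. The 250 bases before the annotated start are shown for each, 5′ to 3′ on the gene's strand, because these elements are known from several of these genes. Capitals mark CArG boxes and every TGACG or its reverse complement CGTCA.
Junb: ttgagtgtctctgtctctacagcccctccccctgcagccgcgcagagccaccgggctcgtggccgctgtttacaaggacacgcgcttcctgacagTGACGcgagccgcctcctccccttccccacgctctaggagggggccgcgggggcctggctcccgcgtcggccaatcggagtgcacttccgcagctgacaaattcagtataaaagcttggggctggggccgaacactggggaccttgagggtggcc
Egr1: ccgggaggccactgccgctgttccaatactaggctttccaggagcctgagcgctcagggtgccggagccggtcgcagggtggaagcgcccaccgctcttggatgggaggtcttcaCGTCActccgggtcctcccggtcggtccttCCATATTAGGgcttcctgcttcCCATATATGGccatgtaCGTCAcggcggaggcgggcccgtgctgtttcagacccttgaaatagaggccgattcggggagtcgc
Egr2: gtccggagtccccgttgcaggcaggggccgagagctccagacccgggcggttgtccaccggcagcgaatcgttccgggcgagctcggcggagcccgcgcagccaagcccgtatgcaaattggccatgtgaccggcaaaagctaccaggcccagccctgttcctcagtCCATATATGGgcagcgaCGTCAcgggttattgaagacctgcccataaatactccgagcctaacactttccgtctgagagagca
Cyr61: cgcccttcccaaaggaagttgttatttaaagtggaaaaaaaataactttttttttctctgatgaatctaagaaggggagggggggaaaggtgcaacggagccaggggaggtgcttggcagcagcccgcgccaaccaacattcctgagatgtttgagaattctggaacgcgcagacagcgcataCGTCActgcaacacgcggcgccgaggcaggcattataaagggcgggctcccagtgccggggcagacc
Dusp1: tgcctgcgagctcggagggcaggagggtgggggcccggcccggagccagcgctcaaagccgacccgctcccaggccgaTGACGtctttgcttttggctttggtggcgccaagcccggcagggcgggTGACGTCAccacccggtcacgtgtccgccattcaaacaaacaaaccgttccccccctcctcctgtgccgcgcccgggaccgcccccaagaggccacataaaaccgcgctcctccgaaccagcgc
These windows lie at chr19:40080876-40081125 (plus strand) for Junb, chr18:26736828-26737077 (plus) for Egr1, chr20:21054442-21054691 (minus) for Egr2, chr2:237225690-237225939 (minus) for Cyr61 and chr10:17184603-17184852 (plus) for Dusp1. Fos, Atf3, Ier3 and Myc are named only. The core TGACG, searched on both strands, occurred in all 5 windows, against 18.2% of 33465 promoter windows of the same length. A CArG box occurred in Egr1, with 2 copies, and in Egr2, against 1.5% of all windows. Counted back from the base before the start as -1, the copies lay at -105 to -96 and -83 to -74 in Egr1 and at -83 to -74 in Egr2. The start used for Egr2 lies inside the annotated gene, chr20:21050149-21055201. The full element TGACGTCA, which contains the core, occurred once, in Dusp1 at -124 to -117, against 1.59% of all windows. The sequence TATAAA occurred in Junb and Cyr61, against 12.9% of all windows. Neither the AP-1 letters TGANTCA nor the EGR letters GCGNGGGCG were found in these 5 windows (6.34% and 4.29% of all windows hold them). A match of letters is a description of the sequence and no measure of binding.

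**Figure D1:**
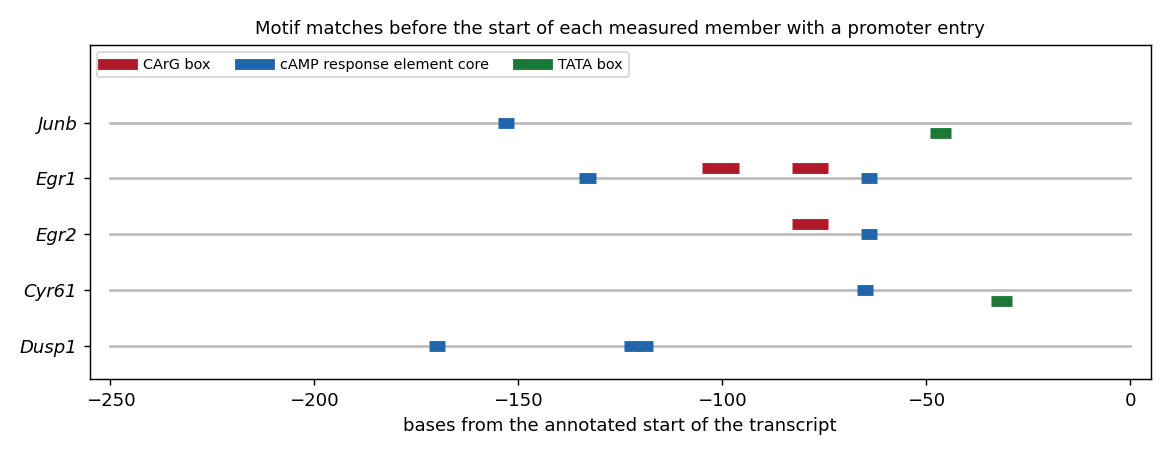
Positions of motif matches in the 250 bases before the annotated start of the 5 measured members with a promoter entry; the horizontal axis gives bases from the start, and each bar is 1 match on either strand. Every row has at least 1 core of the cAMP response element, and CArG boxes appear in the rows of Egr1 and Egr2.

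The level of a gene is given throughout as the log2 signal of its probe minus the 75th percentile of its array, so that 0 is the level of that percentile and a difference of 1 is a 2-fold difference. Levels of different genes come from different probes and are not set against each other. On the 20 arrays 61.5% to 70.5% of features were well above background and 0 were saturated. Replicates 1 and 2 of low-dose STW5 differed by 1.138 times the spread between spots of a probe, where any other pair in a group differed by 2.617 times or more, and were counted as 1 sample, which leaves 19 samples and n = 3 for that group. Slide 1 held the sham group, slide 2 the untreated and low-dose groups and slide 3 the high-dose and omeprazole groups, so only low-dose STW5 against untreated and high-dose STW5 against omeprazole lie within a slide. In every other comparison, those with sham and those of high-dose STW5 or omeprazole with untreated rats included, the group difference cannot be told apart from one between slides. The authors' table of processed values assigns all 8 STW5 arrays to the other dose, and the sample titles number the STW5 groups the other way round from the design text. Which STW5 arrays had which dose is therefore unsettled, and "low-dose" and "high-dose" below follow the doses in the sample titles. The labels speak of 4 animals per group, and the 8 squamous epithelium and 10 striated muscle markers were all well above background on every array.

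The first comparison was untreated reflux oesophagitis against sham surgery. Of the 9 members, 6 were higher and 0 lower in untreated rats by limma at an adjusted p under 0.05, and the arrays of the 2 groups did not overlap for any of the 6. Over all genes tested, 15.0% were called higher, 17.8% lower and 32.8% in either direction in this comparison, and 12.0% lay above sham without overlap. The largest changes were those of Fos, Cyr61 and Egr2, but the place of Egr2 depended on the background correction. With normexp background correction Cyr61 (2.12) and Fos (1.68) still rose most. Egr2 then rose by 0.58, less than Egr1 (1.07), Junb (1.02), Dusp1 (0.75) and Atf3 (0.71). The median log2 change of the 9 members was 1.13, against -0.08 over all genes tested.

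Among the AP-1 members, Fos, the founding subunit, stood at -0.33, -1.68, 1.02 and -0.40 in untreated replicates 1 to 4, against -3.87, -2.25, -3.17 and -2.00 in sham replicates 1 to 4. Every untreated array lay above every sham array. Fos rose by log2 2.48 ± 0.53 (SE, n = 4 and 4, limma adjusted p = 0.00247), a 5.57-fold difference. With normexp background correction the rise of Fos was smaller, 1.68 (adjusted p = 0.00166). Junb, a Jun family partner of Fos, stood at 4.55, 4.74, 6.05 and 5.70 in untreated rats, against 4.29, 4.51, 4.31 and 3.94 in sham rats. Its groups came close to each other, with untreated replicate 1 only just above sham replicate 2, and the rise was 1.00 ± 0.34 (adjusted p = 0.0311). Atf3, a stress-induced family member that can repress as well as activate, ranged over 0.12 to 2.08 in untreated rats and -0.21 to 1.51 in sham rats. Its groups overlapped, and its difference of 0.74 ± 0.39 did not pass the test (adjusted p = 0.159, 95% interval -0.08 to 1.57).

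Both EGR members rose. Egr2, a factor known from myelination and from macrophages and lymphocytes, stood at -2.67, -3.43, -2.29 and -2.93 in untreated rats, against -4.84, -4.28, -5.06 and -4.45 in sham rats. Every untreated array lay above every sham array. Egr2 rose by 1.83 ± 0.24, with the smallest adjusted p of the 9 members, 0.000174. Only 1 of its 10 spots was well above background in each of sham replicates 1 and 3, so the sham level of Egr2 is close to the limit of measurement. With normexp background correction its rise was 0.58 (adjusted p = 0.00412). Egr1, which growth factors and injury induce in many tissues, stood at 0.62, 0.53, 2.43 and 1.90 in untreated rats, against 0.08, 0.03, 0.45 and 0.40 in sham rats. Untreated replicates 3 and 4 were far above sham, and replicates 1 and 2 only just. Egr1 rose by 1.13 ± 0.36 (adjusted p = 0.0254). A second Egr1 probe gave a like difference, 1.25 ± 0.46, that narrowly missed the threshold (limma adjusted p = 0.0516 over 19915 probes).

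Of the other members, Cyr61 and Dusp1 rose and Ier3 and Myc did not pass the test. Cyr61 stood at 1.53, 0.54, 3.28 and 2.90 in untreated rats, against -0.57, -0.29, -0.27 and 0.31 in sham rats. The groups did not overlap, and the rise was 2.27 ± 0.49 (adjusted p = 0.00263), a 4.81-fold difference. Dusp1 stood at -2.32, -3.32, -0.35 and -2.39 in untreated rats, against -3.64, -3.44, -4.17 and -3.56 in sham rats. Replicate 3 stood well above its group and replicate 2 only just above the highest sham array, and the rise was 1.61 ± 0.49 (adjusted p = 0.0189). Ier3 stood at 1.45 to 2.45 in untreated rats and 1.39 to 1.67 in sham rats, a difference of 0.36 ± 0.23 (adjusted p = 0.246). Myc stood at 1.19 to 2.55 in untreated rats and 1.51 to 2.02 in sham rats, a difference of 0.16 ± 0.26 (adjusted p = 0.673, 95% interval -0.40 to 0.72). The calls of Junb, Egr1 and Dusp1 were lost in a fit of these 2 groups alone (adjusted p = 0.0767, 0.0944 and 0.0734), and that of Dusp1 with normexp background correction (0.0511). They were also lost without single arrays: Junb without sham replicate 1, 3 or 4 or untreated replicate 3 or 4 (adjusted p = 0.0601, 0.0594, 0.0777, 0.11 and 0.0846), Egr1 without sham replicate 1 or 2 or untreated replicate 3 or 4 (0.0623, 0.052, 0.0921 and 0.0735), and Dusp1 without sham or untreated replicate 3 (0.0582 and 0.0569).

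**Figure D2:**
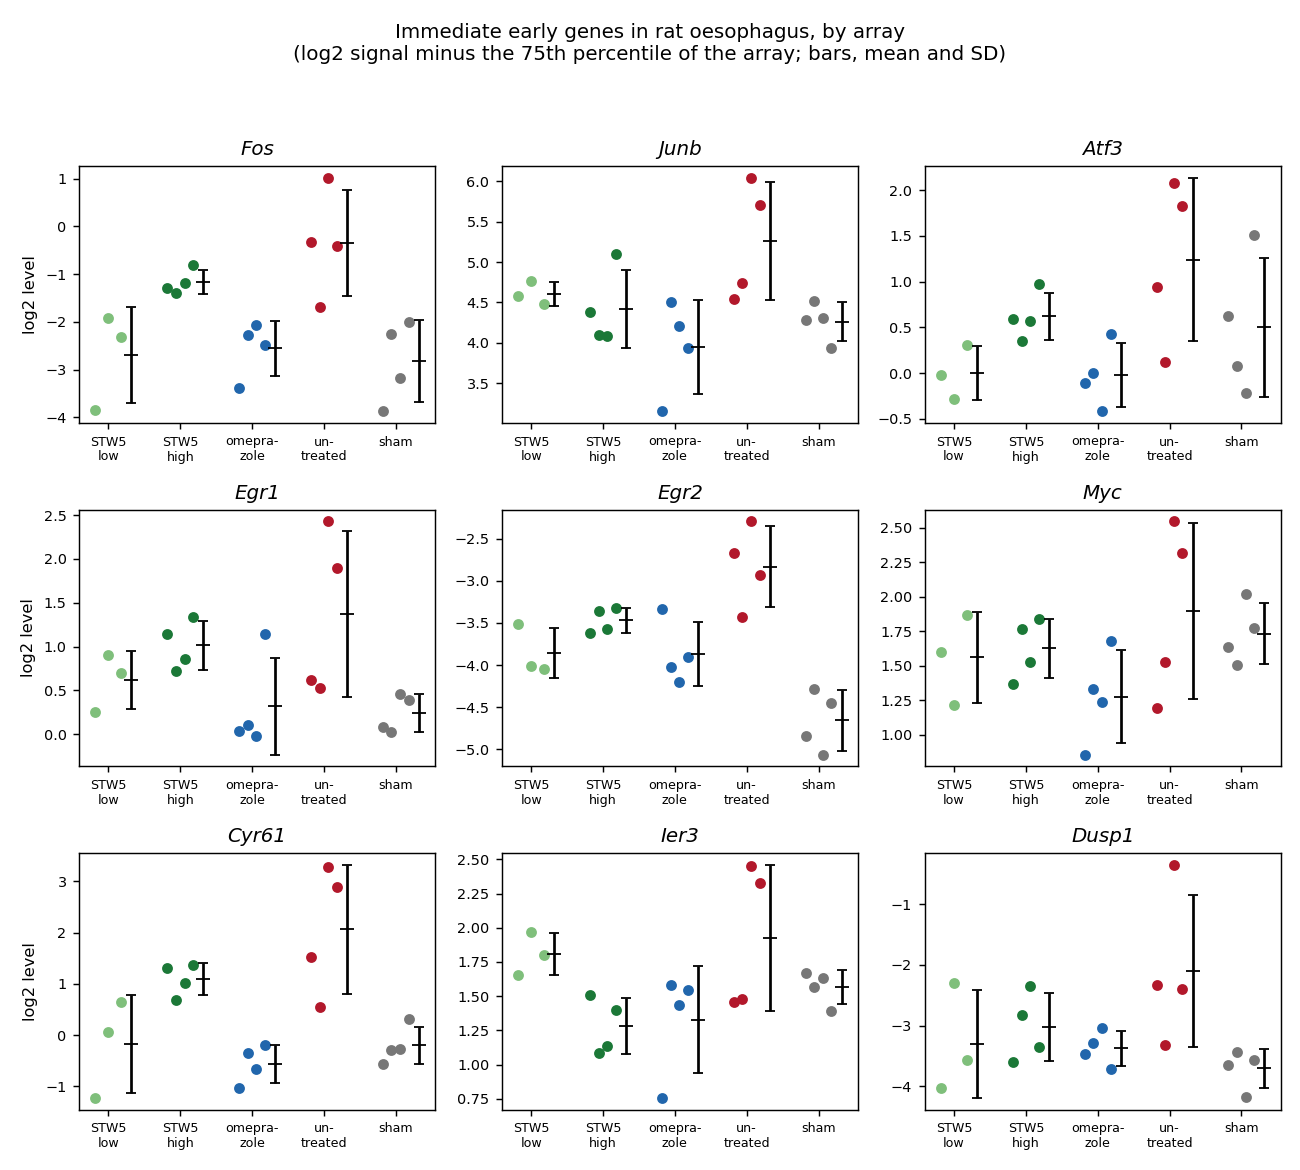
Level of each measured member on every sample (log2 signal minus the array's 75th percentile, one panel per gene with its own vertical axis); points are samples, with the 2 near-identical low-dose arrays averaged, and black bars give the mean and SD of each group. The untreated group has the highest mean in all 9 panels, and its points are widely spread.

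The untreated rats differed strongly among themselves. Replicate 3 was the highest untreated array for all 9 members. Over all 13597 genes, replicate 3 was the highest untreated array for 25.5%. Replicate 2 was the lowest for 6 members and replicate 1 for the other 3. Dusp1 spanned 2.97 log2 units within the group and Cyr61 2.74, against 0.73 for Dusp1 and 0.88 for Cyr61 among sham arrays. Without untreated replicate 3, Fos (2.02), Egr2 (1.65) and Cyr61 (1.86) still rose against sham, while Junb (0.73), Egr1 (0.77) and Dusp1 (1.03) did not pass the test.

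Markers of infiltrating cells also moved with the groups. The summed level of 10 macrophage markers was 232.5 to 456.7 times the array's 75th percentile in untreated rats and 21.41 to 125.3 times in sham rats. All 10 markers were called higher in untreated rats by limma, beside 15.0% of all genes. The neutrophil, endothelial and fibroblast markers are described by their sums and not by calls. Up to 5 of the 8 neutrophil markers were not well above background on a sham array, against at most 1 on an untreated array. The summed level of 8 neutrophil markers was 68.77, 32.99, 403 and 137.8 in untreated replicates 1 to 4, against 2.293, 69.9, 1.801 and 1.453 in sham replicates 1 to 4. Untreated replicate 3, the highest for every member, was also the highest for neutrophil markers. For macrophage markers it was barely above untreated replicate 1 (456.7 and 451.7), which was the lowest untreated array for 3 members. Sham replicate 2 was above its group for neutrophil markers. Endothelial markers summed to 21.29 to 28.67 in untreated rats and 8.202 to 19.93 in sham rats, and fibroblast markers to 409.4 to 882.3 in untreated and 231.2 to 576.5 in sham rats. Squamous epithelium markers summed to 503.8 to 1304 in untreated rats and 804.9 to 1474 in sham rats, and striated muscle markers to 415 to 1072 in untreated and 1018 to 1747 in sham rats. Smooth muscle markers summed to 92.88 to 326.1 in untreated and 154.7 to 236.3 in sham rats. The part of these cell types in the members' changes was not tested.

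**Figure D3:**
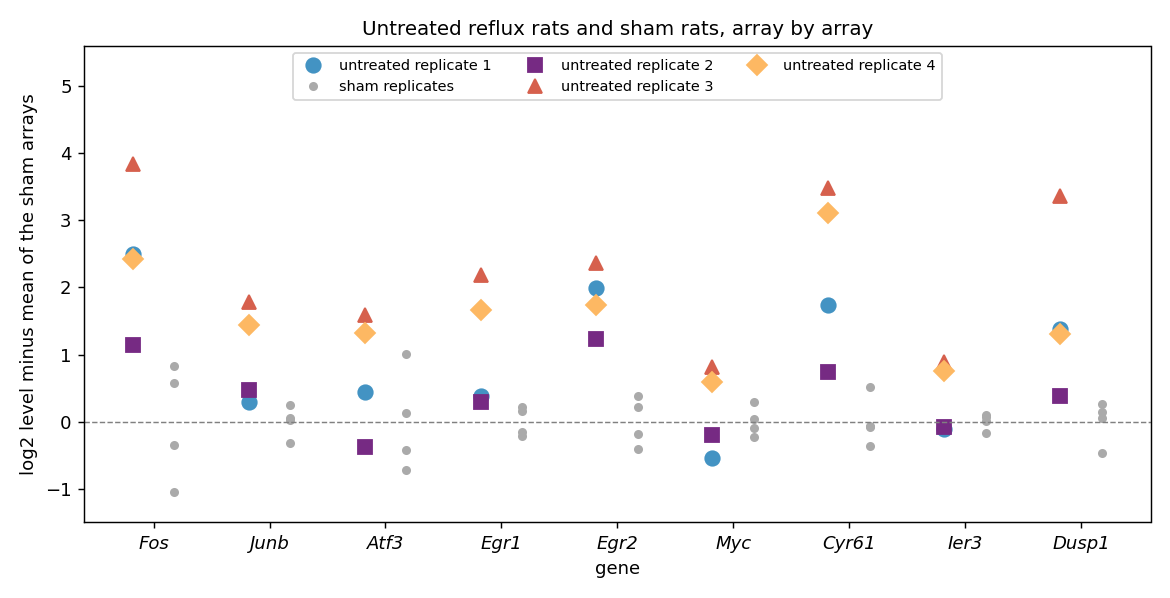
Level of each member minus the mean of the 4 sham arrays (log2 units) in each of the 4 untreated rats, marked by replicate number at the left of each pair, and in the 4 sham rats in grey at the right. Untreated replicate 3 is the top point for all 9 genes, and for Fos, Junb, Egr1, Egr2, Cyr61 and Dusp1 all untreated points lie above the sham points.

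The drug groups were compared with the untreated rats, and these 3 comparisons share the 4 untreated arrays with one another and with the comparison above. In low-dose STW5 rats, 4 of 9 members were lower and 0 higher than in untreated rats, against 16.2% of all genes called lower, 20.4% higher and 36.6% in either direction. The median change of the 9 members was -1.03, against 0.15 over all genes. These 2 groups shared slide 2. Fos and Egr2 lay below untreated without overlap, as 15.8% of all genes did. Fos stood at -3.84, -1.93 and -2.31 in low-dose rats, below every untreated array, and fell by 2.35 ± 0.57 on the log2 scale (n = 3 and 4, limma adjusted p = 0.00443). Cyr61 stood at -1.23, 0.05 and 0.64 in low-dose rats, where the highest lay just above untreated replicate 2, and fell by 2.24 ± 0.53 (adjusted p = 0.00358). Egr2 stood at -3.51, -4.01 and -4.05, below every untreated array, and fell by 1.03 ± 0.26 (adjusted p = 0.00644). The call of Egr2 was lost with normexp background correction (-0.25, adjusted p = 0.166), and that of Cyr61 in a fit of these 2 groups alone (0.0638). Fos kept its call with normexp background correction, with a smaller change of -1.53 (adjusted p = 0.00398).

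Atf3, which had not passed the test against sham, stood at -0.02, -0.29 and 0.31 in low-dose rats and fell by 1.24 ± 0.42 against untreated rats (adjusted p = 0.0299). The call of Atf3 was lost without either of 2 untreated arrays, replicate 3 (adjusted p = 0.0916) or replicate 4 (0.077), and without low-dose replicate 1 (0.0774) or 3 (0.103). Dusp1 differed by -1.21 ± 0.53 (adjusted p = 0.0831), Egr1 by -0.75 ± 0.39 (0.143) and Junb by -0.65 ± 0.36 (0.169). Ier3 and Myc had the smallest differences, -0.12 ± 0.25 and -0.34 ± 0.29.

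In high-dose STW5 rats, 0 of 9 members were called against untreated rats, where 9.56% of all genes were called in either direction, 4.38% higher and 5.18% lower. These groups lay on different slides. The median change of the 9 members was -0.65, against -0.04 over all genes. By unadjusted p under 0.05, 3 members were lower. Exact shares of all genes at unadjusted p are not given here or below, so such counts of members have no background beside them. All 9 differences were negative, and the intervals are wide: Fos differed by -0.82 ± 0.53 (95% interval -1.94 to 0.29, limma adjusted p = 0.322), Cyr61 by -0.97 ± 0.49 (-2.00 to 0.06, 0.206) and Dusp1 by -0.93 ± 0.49 (-1.96 to 0.10, 0.225). Fos stood at -1.29, -1.39, -1.19 and -0.81, within the untreated range of -1.68 to 1.02. Cyr61 stood at 1.31, 0.68, 1.01 and 1.37, within the untreated range of 0.54 to 3.28. Junb differed by -0.84 ± 0.34, Egr2 by -0.64 ± 0.24, Ier3 by -0.65 ± 0.23 and Atf3 by -0.62 ± 0.39 (adjusted p = 0.112, 0.101, 0.0824 and 0.31). Myc differed by -0.27 ± 0.26. Egr1 differed by -0.35 ± 0.36, and by -1.10 ± 0.46 on its second probe (adjusted p = 0.121 over 19915 probes). Without untreated replicate 2, the lowest for most members, 3 of them were lower: Egr2 (-0.84), Ier3 (-0.79) and Cyr61 (-1.48). Leaving out a low array raises the untreated mean by construction. Over all refits without 1 sample, 435 to 2024 genes were called in this comparison, against 1300 with all samples.

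Since the authors' processed values exchange the STW5 doses, the results of the preceding paragraphs exchange with them. On those values 0 members were lower at the low dose, and Fos, Egr2, Atf3 and Cyr61 were lower at the high dose.

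In omeprazole rats, 6 of 9 members were lower and 0 higher than in untreated rats, against 15.0% of all genes called lower, 11.9% higher and 26.9% in either direction. These groups, too, lay on different slides. Cyr61, Fos and Junb lay below untreated without overlap, as 15.8% of all genes did. Cyr61 stood at -1.04, -0.34, -0.67 and -0.20 in omeprazole rats, below every untreated array, and fell by 2.63 ± 0.49, a 6.18-fold difference (n = 4 and 4, limma adjusted p = 0.0012). Fos stood at -3.38, -2.28, -2.06 and -2.49, again below every untreated array, and fell by 2.20 ± 0.53 (adjusted p = 0.00628). With normexp background correction the change of Fos was -1.71 (adjusted p = 0.00136). Junb stood at 3.15, 4.51, 4.21 and 3.93, also without overlap, and fell by 1.31 ± 0.34 (adjusted p = 0.00919, and 0.0538 in a fit of these 2 groups alone). Egr2 stood at -3.33, -4.03, -4.20 and -3.91, where replicate 1 was above the lowest untreated array, and fell by 1.04 ± 0.24 (adjusted p = 0.00578).

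Atf3 fell by 1.26 ± 0.39 in omeprazole rats (adjusted p = 0.0246) and Egr1 by 1.05 ± 0.36 (0.0413), both with overlapping groups. Egr1 stood at 0.04, 0.11, -0.02 and 1.14 in omeprazole rats, with replicate 4 far above the others, and its second probe fell by 1.57 ± 0.46 (adjusted p = 0.0175 over 19915 probes). The calls of Egr1 and Atf3 were lost without untreated replicate 3 (adjusted p = 0.144 and 0.0874), without untreated replicate 4 (0.115 and 0.0742), and without omeprazole replicate 1 (0.0958 and 0.0518) or 3 (0.102 and 0.0683), and that of Egr1 also without omeprazole replicate 2 (0.0886). Dusp1 (-1.28 ± 0.49), Ier3 (-0.60 ± 0.23) and Myc (-0.62 ± 0.26) did not pass the test (adjusted p = 0.0617, 0.0645 and 0.0914), though each had an unadjusted p under 0.05. Macrophage markers summed to 29.35 to 84.84 in low-dose, 128.9 to 235.7 in high-dose and 52.19 to 104.6 in omeprazole rats, against 232.5 to 456.7 in untreated rats. Neutrophil markers summed to 2.476 to 34.84 in low-dose, 12.62 to 58.04 in high-dose and 1.73 to 76.88 in omeprazole rats, against 32.99 to 403 in untreated rats. Their part in the members' levels was not tested.

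**Figure D4:**
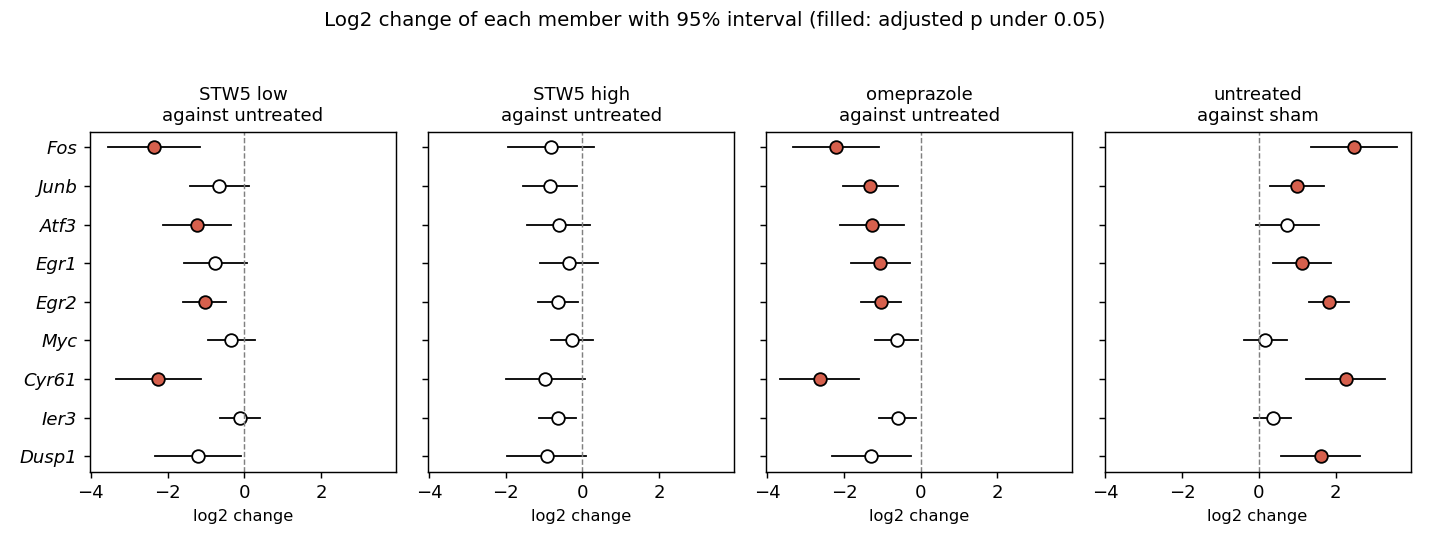
Log2 change of each measured member (rows) with its 95% interval in 4 comparisons (panels), where points left of the dashed line are lower in the group named first; filled points passed limma's test at an adjusted p under 0.05. The low-dose panel has 4 filled points, the high-dose panel 0, the omeprazole panel 6 and the panel of untreated against sham 6.

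Set against sham surgery, few members passed the test in the drug groups, where 0% to 8.92% of all genes were called. For high-dose STW5 the count ranged from 0 to 5 members over all settings. Low-dose STW5 had 0 of 9 members called by limma, and 0% of all genes were called, so the comparison has nothing to set the members against. By unadjusted p under 0.05, 1 member differed, Egr2, whose low-dose arrays all lay above sham, as 4.01% of all genes did (0.80 ± 0.26, adjusted p = 0.56). In high-dose STW5, 1 of 9 members was called, and it was higher, against 8.92% of all genes called and 5.64% called higher. It was Egr2, which stood at -3.62, -3.36, -3.57 and -3.33 in high-dose rats, above every sham array, and rose by 1.19 ± 0.24 (adjusted p = 0.00809). Fos (1.66 ± 0.53), Cyr61 (1.30 ± 0.49) and Egr1 (0.77 ± 0.36) also lay above sham on all 4 high-dose arrays, as 8.85% of all genes did, but did not pass the test (adjusted p = 0.0587, 0.1 and 0.176). The second Egr1 probe stood at -0.55, -0.60, -0.35 and -0.16 in high-dose rats, against 0.01, -0.96 and -0.31 in sham replicates 1 to 3, and sham replicate 4 lay just below replicate 2. Its groups overlapped, and its difference was 0.15 ± 0.46 (adjusted p = 0.854 over 19915 probes). Fos passed the test when sham replicate 2 or 4 was left out, though not without any other single array of the 2 groups. With normexp background correction the difference of Fos was 0.95 (adjusted p = 0.0667). In omeprazole rats 0 of 9 members were called, against 1.38% of all genes. By unadjusted p under 0.05, 1 member differed, Egr2, which again lay above sham on all arrays, as 2.86% of all genes did (0.79 ± 0.24, adjusted p = 0.176). Egr2 was above every sham array in all 4 operated groups, but with normexp background correction its difference from sham was 0.15 in high-dose rats (adjusted p = 0.414) and -0.03 in omeprazole rats (0.901).

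In the 3 comparisons between drug groups, 0 of 9 members passed limma's test. For high-dose against low-dose STW5 (24.5% of all genes called), Fos lay higher in every high-dose array by 1.52 ± 0.57 (adjusted p = 0.0593, 95% interval 0.32 to 2.73) and Cyr61 by 1.27 ± 0.53 (0.0848, 0.16 to 2.38). Atf3 was 0.62 ± 0.42 higher and Ier3 differed by -0.53 ± 0.25, likewise without overlap (adjusted p = 0.293 and 0.129). Over all genes 14.6% lay above and 21.7% below without overlap. An unadjusted p under 0.05 was found for 3 of the 9 members, a threshold that at least the 24.5% of all genes called also passed. Leaving out low-dose replicate 4 brought Cyr61 past the threshold (adjusted p = 0.038). For high-dose STW5 against omeprazole, which shared slide 3 (0.287% of all genes called), Cyr61 was 1.66 ± 0.49 and Fos 1.38 ± 0.53 higher on every high-dose array (adjusted p = 0.146 and 0.218), and 10.3% of all genes lay above without overlap. They were the 2 members with an unadjusted p under 0.05. For low-dose STW5 against omeprazole (3.60% of all genes called), Ier3 was 0.48 ± 0.25 higher without overlap (adjusted p = 0.252), as 16.6% of all genes were, and 0 members had an unadjusted p under 0.05. With the groups of each member ordered by mean level, untreated came first for all 9, and none of the 36 steps between neighbours passed the test (lowest adjusted p = 0.0848).

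The other subunits of AP-1 moved with Fos and Junb in part. Of 12 tested, 5 were higher and 0 lower in untreated than in sham rats, beside 15.0% and 17.8% of all genes. Their median log2 change was 0.62. Batf, which directs T cell and dendritic cell genes, rose by 4.15 ± 0.66 (limma adjusted p = 0.000407), and its relative Batf3 by 1.91 ± 0.31 (0.000454). Fosl1, the Fos relative known from migrating epithelium and tumours, rose by 3.06 ± 0.78 (0.00746) and Jdp2, a Jun dimerization protein, by 2.04 ± 0.34 (0.000501). These 4 lay above sham without overlap, as 12.0% of all genes did, and were named for their small p in this comparison. With normexp background correction they kept their calls with smaller rises, 2.43 for Batf, 0.85 for Batf3, 1.73 for Fosl1 and 0.62 for Jdp2. Against untreated rats, 4 of the 12 were lower in low-dose, 1 in high-dose and 7 in omeprazole rats, beside 16.2%, 5.18% and 15.0% of all genes. In these comparisons 0 of the 12 were higher, beside 20.4%, 4.38% and 11.9% of all genes. Fosl1 changed by -2.86 ± 0.85 in low-dose and by -2.93 ± 0.78 in omeprazole rats (adjusted p = 0.0145 and 0.0117, and 0.0527 in low-dose rats without low-dose replicate 4). Jdp2 was the subunit called in high-dose rats (-1.42 ± 0.34, adjusted p = 0.0164), and its call was lost without high-dose replicate 1 (0.0585) or untreated replicate 1 (0.05) and with array weights (0.0908). Of the 3 other EGR family genes tested, Egr3 and the corepressors Nab1 and Nab2, 0 were called in any of these 4 comparisons by limma, and 1, Egr3 in high-dose against untreated rats, had an unadjusted p under 0.05.

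Other genes of the immediate early class went both ways. Of 19 tested, 6 were higher and 1 lower in untreated than in sham rats (median 0.29), beside 15.0% and 17.8% of all genes. Socs3, an inhibitor of cytokine receptor signalling, rose by 3.34 ± 0.62 (adjusted p = 0.00106), Klf2 by 1.46 ± 0.40 (0.0106) and Ier2 by 0.89 ± 0.24 (0.0107), while Klf4, a factor of epithelial differentiation, fell by 0.97 ± 0.23 (0.00484). Klf4 was higher than in untreated rats with low-dose STW5 (1.36 ± 0.25, adjusted p = 0.000744) and omeprazole (0.79 ± 0.23, 0.0185, and up to 0.0609 without single arrays). In low-dose rats 2 of the 19 were higher and 3 lower, beside 20.4% and 16.2% of all genes. In high-dose rats 0 were called, beside 9.56% of all genes. In omeprazole rats 1 was higher and 9 were lower, beside 11.9% and 15.0% of all genes. Of the 3 nuclear receptors of the NR4A family, Nr4a3 rose in untreated against sham rats by 1.05 ± 0.36 (adjusted p = 0.0325). That call was lost without sham replicate 2 or 3 or untreated replicate 2 or 3 (0.0601, 0.103, 0.0592 and 0.11). Nr4a3 fell by 2.46 ± 0.38 with low-dose STW5 and by 1.51 ± 0.36 with omeprazole (adjusted p = 0.000322 and 0.00566), and Nr4a2 by 0.86 ± 0.28 with low-dose STW5 (0.0242, and up to 0.0919 without single arrays).

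Of 10 other phosphatases of the group to which Dusp1 belongs, which switch MAP kinases off, 3 were higher and 2 lower in untreated than in sham rats, where 15.0% of all genes were higher and 17.8% lower. Dusp2, known from activated immune cells, rose by 3.72 ± 0.49 (adjusted p = 0.000169) and Dusp6, which ERK signalling induces and which dephosphorylates ERK, by 1.59 ± 0.25 (0.000397). The mean level of Dusp2 was -2.45 in untreated rats, against -6.17 in sham rats, and with normexp background correction its rise was 0.95 (0.00125). Dusp8 fell by 1.22 ± 0.23 and Dusp14 by 1.49 ± 0.45 (0.00113 and 0.0181), and the call of Dusp14 was lost without sham replicate 1 (0.071) or untreated replicate 3 (0.0663). Against untreated rats, Dusp6 fell by 1.61 ± 0.27 with low-dose STW5 and by 1.89 ± 0.25 with omeprazole (adjusted p = 0.000444 and 8.91e-05). Dusp2 was not well above background on any low-dose array, and was at least 4.54-fold lower there than in untreated rats (adjusted p = 0.000264), a bound taken against the lowest signal that counts as well above background (the fitted difference with normexp was -0.85). Dusp2 fell by 3.08 ± 0.49 with high-dose STW5 (0.000857) and by 3.72 ± 0.49 with omeprazole (8.91e-05). With normexp background correction these 2 differences were -1.22 and -1.33, both still called. Of 5 genes of ERK feedback, 2 were higher in untreated rats, Spred1 (1.04 ± 0.17, adjusted p = 0.000434) and Spred3, which was not well above background on any sham array and was at least 1.35-fold higher (0.00424). The call of Spred3 was lost with normexp background correction (0.19, adjusted p = 0.399) and with values near background raised to the floor (0.44, 0.286). In high-dose against untreated rats, Dusp2, Spred1 and Spred3 were called, and the calls of Spred1 and Spred3 were lost without single arrays (adjusted p up to 0.0609 and 0.117).

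Upstream of the members, of 13 MAP kinases and their activating kinases, 0 were higher and 3 lower in untreated than in sham rats, beside 15.0% and 17.8% of all genes, among them Map2k3 (-1.12 ± 0.23, adjusted p = 0.00187). In low-dose rats 9 of the 13 were higher than in untreated rats, in high-dose rats 0, and in omeprazole rats 3, beside 20.4%, 4.38% and 11.9% of all genes. Of 8 EGF family ligands and receptors, 0 were higher and 5 lower in untreated rats, with Egf at -1.91 ± 0.39 and the receptor gene Erbb2 at -1.11 ± 0.25 (adjusted p = 0.00181 and 0.00348). Of 7 genes listed with serum response factor, 2 were higher, Crem (1.08 ± 0.22) and Elk3 (0.76 ± 0.24). The adjusted p was 0.00196 for Crem and 0.0207 for Elk3 (for Elk3 up to 0.0771 without single arrays). Crem encodes a factor of the CREB family and not a partner of serum response factor. Squamous epithelium and striated muscle markers, whose sums were given above, also were in part lower in untreated rats (5 of 8 and 6 of 10 called lower), and their part in these falls was not tested. Of 8 partners and antagonists of MYC, 1 was higher and 1 lower, which is near the share over all genes, Mxd4 (0.93 ± 0.21, adjusted p = 0.00316) and Mxi1 (-0.88 ± 0.16, 0.000744). Of 10 genes of the integrated stress response, which includes Atf3 among its targets, 2 were higher and 2 lower, among them Asns (1.65 ± 0.33, 0.00181) and Chac1 (-1.05 ± 0.24, 0.00408).

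The relatives of Cyr61 and most of the listed genes that AP-1 and EGR factors are known to activate rose with it. Of all genes, 15.0% were called higher and 17.8% lower in untreated than in sham rats. All 4 other CCN genes tested were higher in untreated than in sham rats, Ccn4 by 4.23 ± 0.75, Ccn5 by 1.79 ± 0.54, Ccn2 by 1.55 ± 0.31 and Ccn3 by 1.02 ± 0.33 (adjusted p = 0.000788, 0.0189, 0.00172 and 0.0255). The calls of Ccn3 and Ccn5 were lost without single arrays (adjusted p up to 0.0972 and 0.0715) and in a fit of these 2 groups alone (0.085 and 0.0933). Against untreated rats, 3 of the 4 were lower in low-dose, 0 in high-dose and 2 in omeprazole rats, beside 16.2%, 5.18% and 15.0% of all genes. Of 15 target genes tested, 13 were higher and 0 lower in untreated rats (median 3.63). They included the metalloproteinase inhibitor Timp1 (4.55 ± 0.73, adjusted p = 0.000416), the metalloproteinase Mmp3 (3.63 ± 0.65, 0.000808) and the urokinase receptor Plaur (4.42 ± 0.83, 0.00112). With normexp background correction the rise of Mmp3 was 1.08 and that of Plaur 2.25, both still called. Of the 15, 12 were lower in low-dose, 4 in high-dose and 9 in omeprazole rats than in untreated rats, beside the same 16.2%, 5.18% and 15.0% of all genes. Mmp3 was not well above background on any low-dose array and was at least 4.45-fold lower there (adjusted p = 0.00055, with a fitted difference of -0.99 under normexp). The call of Plaur in high-dose against untreated rats was lost without single arrays (adjusted p up to 0.132). Several of these genes are also expressed by macrophages and neutrophils, whose markers moved in the same direction, and their part was not tested.

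**Figure D5:**
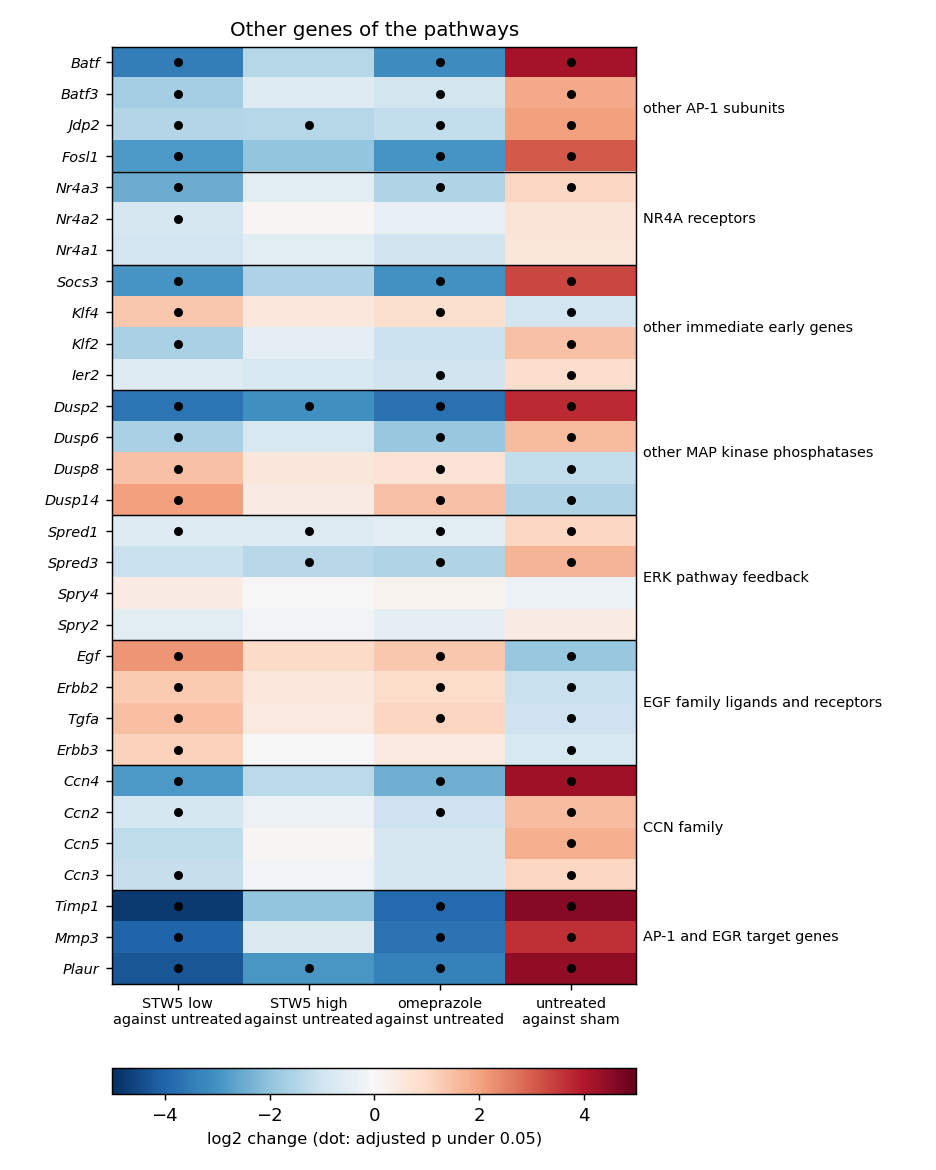
Log2 change of the named genes of 8 pathway lists (rows) in 4 comparisons (columns), with red higher and blue lower in the group named first and a dot where limma's adjusted p was under 0.05; for a gene not well above background in a group, the colour is the fitted value, which is no bound. Timp1, Mmp3 and Plaur are dotted in the column of untreated against sham and in the low-dose and omeprazole columns, and Jdp2, Dusp2, Spred1, Spred3 and Plaur in the high-dose column.

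Across the 19 samples the members varied together to different degrees. Pearson's r between pairs of members had a median of 0.67 over 36 pairs, with the highest value, 0.92, for Fos and Cyr61 and the lowest 0.177. After the group means were subtracted, the median was 0.522, and the highest value, 0.889, was that of Junb and Ier3. These are descriptions over samples that share slides and group differences, and carry no test. The genes outside the set whose profile was most like that of Cyr61 were Ppp1r3d (r = 0.968), Dusp6 (0.957) and Hyal2 (0.95). For Fos they were Oas1a (0.95) and Napsa (0.948), for Junb Coq10b (0.955), Arpc5 (0.945) and Ier2 (0.936), and for Egr2 Fkbp5 (0.927), Hspb9 (0.895) and Pdxk (0.888). For Egr1 they were Odf2 (0.886), Enc1 (0.883) and Errfi1 (0.864), for Dusp1 S1pr4 (0.908), Sat1 (0.87) and Rap1b (0.87), and for Atf3 Gorab (0.902), Rras2 (0.876) and Pcsk1 (0.875). For Ier3 they were Nup50 (0.912), H3f3b (0.892) and Actg1 (0.891), and for Myc Cct8 (0.868), Sik1 (0.854) and Gpn1 (0.853).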

How the data were processed

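RNA of oesophageal tissue of 20 rats was labelled with one dye (Cy3) and hybridised to Agilent rat arrays, per the labels' protocols. The deposited scanner files hold an intensity per feature, background-subtracted and detrended with Agilent Feature Extraction 10.7.3.1, per the file headers. The deposited value table holds a ratio, the signal of each array divided by its median, not log transformed. This was found by setting it against the scanner files, and 8 of its columns, all of STW5 samples, match arrays labelled with the other dose. Every column has a median of 1.

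Outlier spots were left out, spots of a probe were averaged as log2, and the 75th percentile of each array was subtracted. The filter kept probes with a share of 0.5 or more of spots well above background on 4 or more arrays, and a gene was represented by its brightest probe. A Benjamini-Hochberg adjusted p under 0.05 in limma 3.58.1 (R 4.3.3), fitted over 19 samples in 5 groups (14 residual and 2.86 prior degrees of freedom), counted as changed. Fold changes are differences of means on the log2 scale. Of 30367 probes, 18005 were named by accession through RefSeq (GRCr8), 2668 by symbol and 547 by synonym, and 1933 keep the array's name. The number of arrays limits precision, and the p-values measure the spread between these arrays. Arrays of a group that differed by under 1.5 times the spread between spots were averaged. The fit was tested on simulated data. Members and gene lists were chosen with earlier results of these data known, so the lists are no independent evidence. Named list genes are up to 4 of each list with the smallest p in untreated against sham, and for each member the 3 genes of highest correlation are named, except that 2 of the genes so chosen are not reported here. Alternatives were other scalings, background corrections, filters, probe summaries, array weights, 2-group fits, a replicate block and leaving out each sample.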

Additional observations from a re-analysis of the deposited data

Results flagged for a closer look

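Egr1 in omeprazole replicate 4 stood at 1.14, away from the other 3 omeprazole arrays, which lay between -0.02 and 0.11. The gap was large for 4 samples by Dixon's criterion at the 95% level. It was the 1 case past that criterion among 36 groups of 4 tested for the 9 members, and chance flags about 1 in 20 groups.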

How the results depend on the processing

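The cause of the shifts given here was not tested. Counts of members called changed as follows. With only the 2 groups compared in the fit, untreated against sham had 3 members called, low-dose STW5 against untreated 2, omeprazole against untreated 3, high-dose STW5 against sham 4, against low-dose 1 and against omeprazole 2. With normexp background correction, high-dose STW5 had 1 member called against untreated and 0 against sham, and Egr2 in omeprazole against sham reversed (-0.0346). With array weights, the counts were 7 for untreated against sham, 3 for low-dose against untreated, 4 for omeprazole against untreated, 2 for high-dose against untreated, 1 for low-dose against sham, 5 for high-dose against sham, 2 for omeprazole against sham, 3 for high-dose against low-dose and 2 for high-dose against omeprazole, and Myc in untreated against sham reversed (-0.0739). That setting lost Atf3 in low-dose (adjusted p = 0.0552) and Atf3 and Egr1 in omeprazole against untreated (0.0597 and 0.0958). On the authors' value table, whose STW5 doses are exchanged, the counts were 0 for low-dose and 4 for high-dose against untreated and 1 and 0 against sham. By that exchange, high-dose against low-dose reversed for Fos (-1.52), Atf3 (-0.62), Ier3 (0.53) and Cyr61 (-1.27), as did Fos in high-dose against omeprazole (-0.14), Ier3 in low-dose against omeprazole (-0.0474), and Erbb3 (-0.0303) and Nr4a2 (0.0862) in low-dose against untreated. With all 20 arrays counted, high-dose against low-dose had 2 members called. With a replicate block it had 2, high-dose against sham 3, low-dose against untreated 6 and omeprazole against untreated 8. Same-numbered arrays of different groups correlated with r from -0.324 to 0.577 (median 0.08) after group means were removed. Arrays of different numbers correlated with r from -0.525 to 0.642 (median -0.006). Of 20 arrays, 6 correlated best with their own number. These descriptions cannot settle whether the numbers pair the samples. Leaving out each sample in turn gave 3 to 7 members for untreated against sham, 3 to 6 for low-dose, 0 to 3 for high-dose and 4 to 8 for omeprazole against untreated, 1 to 2 for high-dose against sham and 0 to 1 for high-dose against low-dose. It turned the sign of Myc in untreated against sham (-0.0541 to 0.398), Ier3 in low-dose (-0.276 to 0.0549) and Egr1 in high-dose against untreated (-0.632 to 0.0015). Sham replicate 2 and omeprazole replicate 2 differed by 2.091 times the spread between spots, less than any pair within a group but the averaged one (2.617). Leaving out both, added after seeing the data, lost the call of Egr1 in untreated against sham (1.06, adjusted p = 0.0612) and in omeprazole against untreated (-0.98, 0.0983). Of the values of called list genes under the alternatives, 718 of 760 in untreated against sham kept direction and call, as did 577 of 627 in low-dose, 114 of 160 in high-dose and 552 of 640 in omeprazole against untreated. The share of called genes that were higher moved in several comparisons. Median scaling, which shifted the median of all genes by -0.10 in omeprazole against untreated and by 0.11 in low-dose against omeprazole, gave 33.7% in place of 44.2% and 75.2% in place of 52%, and 52.7% in place of 63.2% in high-dose against sham. Normexp gave 31.8% in place of 45.8% in high-dose against untreated, 34.9% in place of 63.2% in high-dose against sham, 20.2% in place of 42.8% in high-dose against low-dose and 92.1% in place of 52% in low-dose against omeprazole. Array weights gave 37.1% in place of 63.2% in high-dose and 31.9% in place of 95.2% in omeprazole against sham. Genes called over all settings ranged over 2247 to 5605 in untreated against sham, 1300 to 6800 in low-dose, 435 to 4973 in high-dose and 2540 to 4038 in omeprazole against untreated, and over 0 to 2468, 0 to 7381 and 115 to 4104 in these groups against sham. The 1300 in low-dose, the 4973 in high-dose and the 0 in high-dose against sham come from the authors' value table with its exchanged STW5 doses.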
